A study of Saccharomyces cerevisiae with 8 samples.

Results

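The enzymes of the tricarboxylic acid (TCA) cycle and the nuclear-encoded subunits of the respiratory chain were followed in budding yeast with and without a mutation in cohesin. They are 42 genes chosen by name from a table of 6596 gene models: 10 TCA cycle genes, 4 genes of succinate dehydrogenase (complex II), the single-subunit NADH dehydrogenase NDI1, 9 genes of the cytochrome bc1 complex (complex III), 7 of cytochrome c oxidase (complex IV) and 11 of the ATP synthase. All 42 passed the low-count filter, which kept 6558 models in all. RNA selected for poly(A) was sequenced in 8 samples, 4 of the wild type (WT) and 4 of mcd1-1, lettered A to D within each group. Both strains are derivatives of the haploid W303-1a, which is of mating type a, and both were taken in logarithmic phase after 2 generations in rich glucose medium (YPD) at 31 °C, from an optical density of 0.2. The groups differ in the labels by the mcd1-1 allele alone. The product of MCD1 is the kleisin of cohesin, the ring that keeps sister chromatids joined, and mcd1-1 is known as a temperature-sensitive allele.

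The TCA cycle oxidises acetyl groups in the mitochondrial matrix, and the respiratory chain passes the electrons from NADH and succinate through complexes III and IV to oxygen. Yeast has no proton-pumping complex I and uses NDI1 in its place. The proton gradient built by complexes III and IV drives the ATP synthase. In glucose, yeast mostly ferments and holds many of these genes down, and the Hap2, Hap3, Hap4 and Hap5 proteins activate many of them through promoter sites with the core CCAAT.

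The 8 libraries held 22331070 to 58506447 counts, and the lowest count of any member in any library was 1314. Levels are counts per 1000000 counts after TMM scaling (CPM). They are relative to the other mRNAs of a library, so fewer cells and less RNA per cell cannot be told apart. Nothing in the labels ties the replicates to separate cultures, and the p-values reflect only how far these samples spread, which may be technical. In both genotypes libraries A and B stood apart from C and D, and the labels do not say what sets them apart. Counts are therefore also given within A and B and within C and D, with 2 WT and 2 mcd1-1 libraries each. MCD1 itself was at 80.3 ± 5.20 CPM (SD, n = 4) in WT and 312 ± 44.6 CPM (SD, n = 4) in mcd1-1. Reads of a mutant allele also count as MCD1, so its level does not check the labels. The 5 a-cell markers were present in both groups at a summed 952 to 1124 CPM in WT and 628 to 919 CPM in mcd1-1, none of them called, while the alpha-cell markers summed to 10.4 to 13.6 CPM in WT and 31.2 to 41.0 CPM in mcd1-1, with 2 of 3 called higher. The part of these differences in the results was not tested.

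In mcd1-1, mRNAs for parts of complex IV and the ATP synthase were lower than in WT, while no TCA cycle or complex II gene passed the test. At an adjusted p under 0.05, 10 of 42 members (23.8%) were lower and 0 were higher. They are 6 of the 11 ATP synthase genes, 3 of the 7 complex IV genes and 1 of the 9 complex III genes. Over all genes tested 19.7% were called lower and 20.7% higher, and among the 4165 genes of at least 50 CPM, where every member lies, 27.0% were lower and 10.6% higher. The share of members that fell is thus close to that of other genes as abundant. The median log2 fold change was -0.22 over the 42 members, -0.20 over the genes of at least 50 CPM and -0.01 over all genes tested. All adjusted p-values are from edgeR's quasi-likelihood F test, 2-sided, with Benjamini-Hochberg adjustment over all genes tested, and errors of log2 fold changes are standard errors. All 4 mcd1-1 libraries lay below all 4 WT libraries for 10 members, against 21.0% of all genes, and above them for 0 members, against 22.1%.

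**Figure D1:**
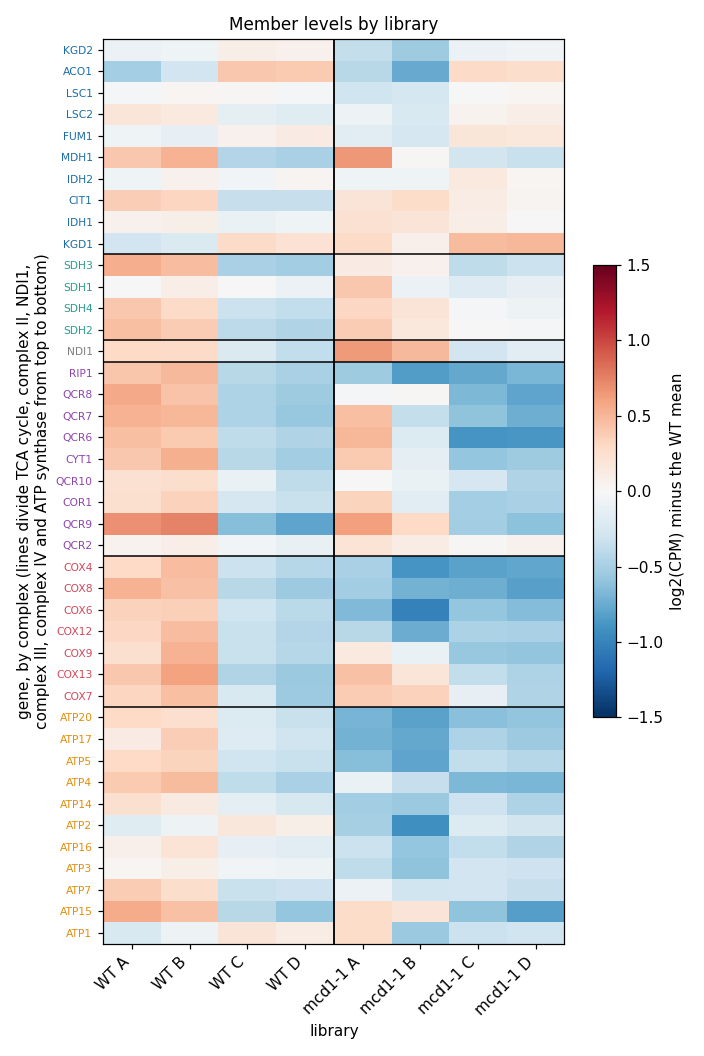
Level of each of the 42 genes (lines) in each of the 8 libraries (columns), as log2 CPM minus the WT mean of that gene, with red above and blue below the WT mean. WT A and B are red and WT C and D blue for most genes, and COX4, COX6, ATP20 and ATP17 are blue in all 4 mcd1-1 libraries.

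**Figure D2:**
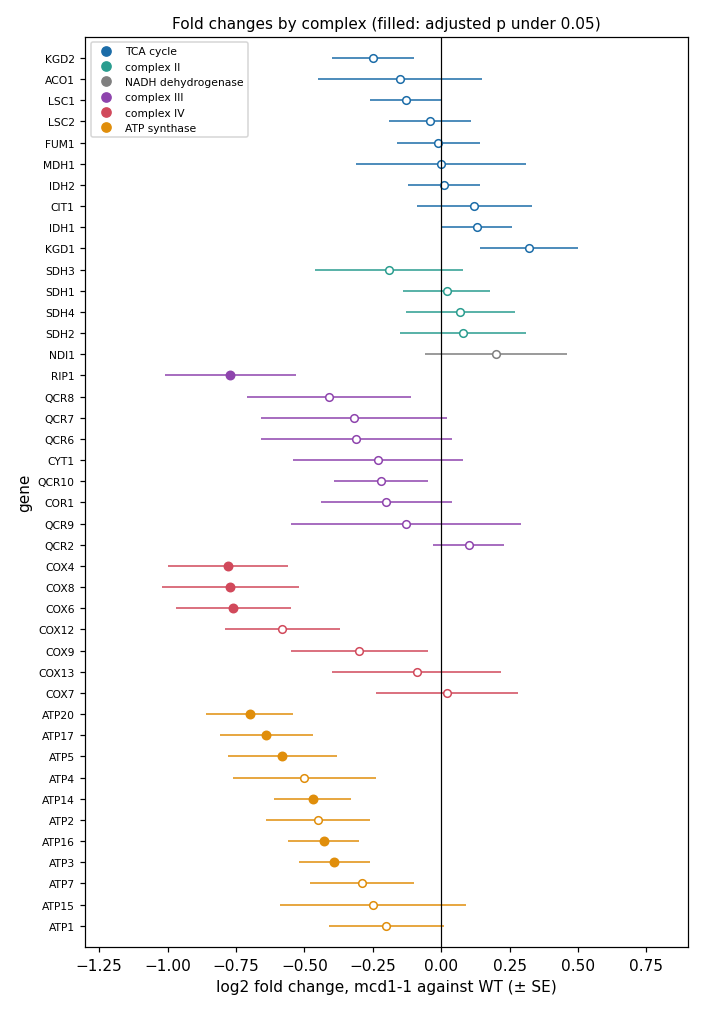
Log2 fold change of mcd1-1 against WT for each gene, with bars of 1 standard error and colours by complex; filled points have an adjusted p under 0.05. The 10 filled points belong to complex III (RIP1), complex IV (COX4, COX6, COX8) and the ATP synthase (6 genes), and all lie below 0.

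The promoters of the members share a feature that the choice of genes did not use directly. In the 400 bases before the start codon, CCAAT on either strand was found in 38 of 42 members (90.5%), against 3144 of 5894 such windows in the genome (53.3%). It stood before all 11 ATP synthase genes and all 4 complex II genes, and was missing from the windows of LSC1, LSC2, CYT1 and COX4. The window of COX4 lies largely within its counted gene model (chrVII:149704-150525, minus strand, coding length 468 bases). The sequence before that model was therefore hardly searched. The letters GTCAC, part of sites of the factor Cbf1, were in 21 of 42 members (50%) against 35.0% of all windows, with 7 of them in complex III. A form of the site of the haem-responsive activator Hap1, made of CGG triplets, was in 1 member, QCR6, and in 0.238% of all windows. Of the 10 genes that fell, 9 carry CCAAT in these windows. So do 38 of all 42 members, and thus most members that did not fall. The stretches below are from the 9, and from QCR2 and KGD1, 2 carriers that did not fall. Each is the CCAAT nearest to the start codon with 15 bases on each side, on the strand of the gene from 5′ to 3′, read from the RefSeq genome of build R64, with the motif (CCAAT, or ATTGG where it lies on the other strand) in capitals.
RIP1: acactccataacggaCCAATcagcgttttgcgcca
COX6: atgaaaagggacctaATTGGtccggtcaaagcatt
COX8: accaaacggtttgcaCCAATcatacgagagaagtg
ATP3: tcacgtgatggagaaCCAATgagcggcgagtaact
ATP5: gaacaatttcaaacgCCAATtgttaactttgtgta
ATP14: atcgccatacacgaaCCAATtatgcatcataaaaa
ATP16: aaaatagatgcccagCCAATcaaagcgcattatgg
ATP17: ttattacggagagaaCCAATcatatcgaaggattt
ATP20: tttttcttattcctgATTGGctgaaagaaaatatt
QCR2: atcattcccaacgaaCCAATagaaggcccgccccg
KGD1: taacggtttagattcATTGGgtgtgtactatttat
These stretches lie at chrV:106998-107032 for RIP1, chrVIII:209475-209509 for COX6, chrXII:910147-910181 for COX8, chrII:315365-315399 for ATP3, chrIV:1058958-1058992 for ATP5 and chrXII:722551-722585 for ATP14. Those of ATP16, ATP17, ATP20, QCR2 and KGD1 lie at chrIV:442850-442884, chrIV:1228367-1228401, chrXVI:599686-599720, chrXVI:919181-919215 and chrIX:122423-122457. COX8, ATP5 and ATP14 are on the minus strand and the others on the plus strand. The 66 CCAAT sites of the members began a median of 217 bases before the start codon (quartiles 171 and 291.5), and the 4546 sites of all windows a median of 221 bases (quartiles 116 and 317). A match describes the letters only and does not show a bound site. The median log2 fold change was -0.03 over 3135 genes with CCAAT and -0.03 over 2744 genes without it. The letters occur in 53.3% of all windows and in 38 of 42 members, so this split cannot show whether bound sites matter. The part of the motif in the changes was not tested.

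The 10 TCA cycle enzymes had a median log2 fold change of -0.01, with values from -0.25 to 0.32, and none passed the test. Their summed level was 3068, 3204, 3200 and 3195 CPM in WT A to D and 3114, 2761, 3404 and 3332 CPM in mcd1-1 A to D, so the groups overlapped. KGD1, which encodes the first subunit of the alpha-ketoglutarate dehydrogenase, had the smallest p of the 10. It was at 178, 186, 264 and 252 CPM in WT A to D and at 265, 229, 300 and 305 CPM in mcd1-1 A to D. Each mcd1-1 library was above the WT libraries of its own set, but across the sets the groups overlapped, since WT C and D were above mcd1-1 B. Its log2 fold change was 0.32 ± 0.18 with an adjusted p of 0.183. With the replicate letter as a block it was called higher (adjusted p 0.0338), and it was the only member called higher in A and B alone (0.44) and also in C and D alone (0.27), where 27.5% of all genes were.

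The other enzymes of the cycle moved little in the fit over all 8 libraries. KGD2, the second subunit of the same complex, went the other way at -0.25 ± 0.15. CIT1, the citrate synthase that opens the cycle, was at 0.12 ± 0.21, and aconitase (ACO1) at -0.15 ± 0.30. The subunits of NAD-dependent isocitrate dehydrogenase were at 0.13 ± 0.13 (IDH1) and 0.01 ± 0.13 (IDH2). Those of succinyl-CoA ligase were at -0.13 ± 0.13 (LSC1) and -0.04 ± 0.15 (LSC2). Fumarase (FUM1) was at -0.01 ± 0.15, and mitochondrial malate dehydrogenase (MDH1) had 330 ± 120 CPM in WT and 329 ± 113 CPM in mcd1-1 (SD, n = 4). Within the sets some of them did change. Of the 10 cycle genes 2 were lower and 1 higher in A and B alone, against 32.9% and 34.8% of all genes. In C and D alone 0 were lower and 5 higher, against 37.1% and 38.8%. LSC2 was called in opposite directions, at -0.32 in A and B and 0.28 in C and D. CIT1 was at -0.11 (not called) and 0.47 (called higher). Per kilobase of coding sequence the WT levels of the cycle ran from 72.2 CPM for KGD1 to 328 CPM for MDH1.

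Complex II, which oxidises succinate and feeds the electrons to ubiquinone, also had no called gene, and its median log2 fold change was 0.05. SDH3, a membrane anchor subunit, had the smallest p of the 4. Its levels were 185, 174, 90.6 and 88.4 CPM in WT A to D and 138, 133, 97.4 and 101 CPM in mcd1-1 A to D. The mcd1-1 values lay between the WT A and B values and the WT C and D values, and the log2 fold change was -0.19 ± 0.27 (adjusted p 0.597). The flavoprotein SDH1 was at 0.02 ± 0.16, the iron-sulphur subunit SDH2 at 0.08 ± 0.23 and the other anchor SDH4 at 0.07 ± 0.20.

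NDI1, which passes electrons from matrix NADH to ubiquinone, was at 248, 245, 173 and 155 CPM in WT A to D and at 314, 281, 165 and 180 CPM in mcd1-1 A to D. Libraries A and B were the higher ones in both genotypes, and the groups overlapped. The log2 fold change was 0.20 ± 0.26 (adjusted p 0.568).

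Complex III carries electrons from ubiquinol to cytochrome c. RIP1, its Rieske iron-sulphur subunit at chrV:107260-107907 on the plus strand, was the 1 subunit that fell. It was at 307, 322, 173 and 164 CPM in WT A to D and at 159, 129, 135 and 143 CPM in mcd1-1 A to D. WT A and B stood far above WT C and D, and the mcd1-1 libraries were alike and all below the lowest WT library. The log2 fold change was -0.77 ± 0.24 (adjusted p 0.0309), with -1.13 in A and B alone and -0.24 in C and D alone. The other 8 subunits did not pass the test, and 7 of them had values below 0. The small subunits lay at -0.41 ± 0.30 for QCR8, -0.32 ± 0.34 for QCR7, -0.31 ± 0.35 for QCR6, -0.22 ± 0.17 for QCR10 and -0.13 ± 0.42 for QCR9. Cytochrome c1 (CYT1) lay at -0.23 ± 0.31, and the core proteins at -0.20 ± 0.24 (COR1) and 0.10 ± 0.13 (QCR2). With the replicate letter as a block QCR8 (adjusted p 0.0230) and QCR6 (0.0495) were called lower as well. Per kilobase, RIP1 went from 372 CPM in WT to 219 CPM in mcd1-1, while QCR7, the highest of the complex in WT, went from 708 to 566 CPM and QCR2, the lowest, from 237 to 253 CPM.

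Complex IV reduces oxygen to water. Its nuclear-encoded subunits surround the mitochondrially encoded core, and 3 of the 7 fell. COX4, a zinc-binding subunit, was at 245, 274, 159 and 148 CPM in WT A to D and at 142, 108, 114 and 116 CPM in mcd1-1 A to D. COX8, a small membrane subunit, was at 160, 152, 83.9 and 76.3 CPM in WT A to D and at 77.8, 68.4, 67.5 and 63.6 CPM in mcd1-1 A to D. COX6, a matrix-facing subunit at chrVIII:209705-210151 on the plus strand, was at 278, 281, 178 and 165 CPM in WT A to D and at 138, 108, 146 and 140 CPM in mcd1-1 A to D. For COX4 and COX6 the groups did not overlap, while for COX8 mcd1-1 A lay just above WT D, and in all 3 the WT libraries A and B were the highest. The log2 fold changes were -0.78 ± 0.22 for COX4 (adjusted p 0.0193), -0.77 ± 0.25 for COX8 (0.0350) and -0.76 ± 0.21 for COX6 (0.0185). All 3 were also called in A and B alone (-1.06, -1.10 and -1.18) and in C and D alone (-0.38, -0.25 and -0.23).

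The rest of complex IV was uneven. COX12 lay at -0.58 ± 0.21 and missed the threshold at an adjusted p of 0.0549. COX9 was at -0.30 ± 0.25, COX13 at -0.09 ± 0.31 and COX7 at 0.02 ± 0.26. Per kilobase the 7 subunits were within 362 to 537 CPM in WT and spread over 243 to 438 CPM in mcd1-1. In mcd1-1, COX4, COX6, COX8 and COX12 were at 256, 298, 293 and 243 CPM per kilobase, and COX7, COX9 and COX13 at 402, 438 and 405 CPM. The gene model counted for COX4 is longer than its RefSeq coding sequence, which was used for the length.

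Of the 11 ATP synthase genes 6 fell, and with all libraries and TMM scaling each of the 11 had a log2 fold change below 0. ATP1, ATP7 and ATP15 were above 0 with scaling by library size alone, ATP1 in A and B alone (0.07) and ATP7 in C and D alone (0.04). Its summed level was 3448, 3625, 3293 and 3121 CPM in WT A to D and 2868, 2175, 2626 and 2543 CPM in mcd1-1 A to D. The groups did not overlap. The sum hides opposite differences between the WT sets, since the ratio of WT A and B to WT C and D was 1.99 for ATP15 and 1.82 for ATP4 but 0.810 for ATP1 and 0.835 for ATP2. The median log2 fold change was -0.45, with -0.58 in A and B alone and -0.21 in C and D alone.

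In the membrane sector, both ATP20 and ATP17 fell. ATP20, subunit g at chrXVI:599870-600217 on the plus strand, takes part in joining ATP synthases into dimers. It was at 96.8, 93.2, 67.9 and 62.2 CPM in WT A to D and at 48.6, 45.2, 50.8 and 52.3 CPM in mcd1-1 A to D. ATP17, subunit f, was at 150, 177, 120 and 112 CPM in WT A to D and at 84.3, 81.0, 100 and 94.0 CPM in mcd1-1 A to D. Neither gene's groups overlapped, and in each the mcd1-1 libraries varied less than the WT libraries. The log2 fold changes were -0.70 ± 0.16 for ATP20 (adjusted p 0.00875, the smallest of the members) and -0.64 ± 0.17 for ATP17 (0.0155).

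In the peripheral stalk, ATP5 and ATP14 fell and ATP4 and ATP7 did not pass the test. ATP5, the subunit that ties the stalk to the catalytic head, was at 299, 307, 197 and 192 CPM in WT A to D and at 156, 140, 188 and 181 CPM in mcd1-1 A to D. The groups did not overlap, but mcd1-1 C lay only just below WT D. Its log2 fold change was -0.58 ± 0.20 (adjusted p 0.0452), with -1.04 in A and B alone, -0.04 in C and D alone, and an adjusted p of 0.0523 with the replicate block. ATP14, subunit h, was at -0.47 ± 0.14 (0.0280), ATP4 at -0.50 ± 0.26 (0.154) and ATP7 at -0.29 ± 0.19 (0.246). The model of ATP14 overlaps another gene model, so its reads are less certain.

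In the central stalk, ATP3 (-0.39 ± 0.13, adjusted p 0.0386) and ATP16 (-0.43 ± 0.13, 0.0287) fell, and ATP15 was at -0.25 ± 0.34. In the catalytic head, the beta subunit ATP2 was at -0.45 ± 0.19 and the alpha subunit ATP1 at -0.20 ± 0.21, and neither passed the test. All 4 mcd1-1 libraries of ATP2 were below all 4 WT libraries, at 501 to 822 CPM against 832 to 1067 CPM. With the replicate block ATP2 (adjusted p 0.0260), ATP4 (0.0223) and ATP15 (0.0439) were also called lower. In all, the block gave 14 members lower and 1 higher, where 30.2% and 29.4% of all genes were.

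ATP16, the delta subunit of the central stalk at chrIV:443029-443511 on the plus strand, is the neighbour of MCD1, whose coding sequence runs on the same strand at chrIV:444683-446383. ATP16 was at 179, 196, 156 and 153 CPM in WT A to D and at 136, 114, 132 and 124 CPM in mcd1-1 A to D. MCD1 was at 80.7, 87.2, 75 and 78.1 CPM in WT A to D and at 378, 288, 286 and 295 CPM in mcd1-1 A to D. ATP16 was lower and MCD1 higher in every mcd1-1 library, and the log2 fold change of MCD1 was 1.96 ± 0.15 (adjusted p 4.53e-05). On the far sides, MED2, a Mediator subunit, was at 0.44 ± 0.15 (0.0460) and NHP10, of the INO80 complex, at -0.71 ± 0.14 (0.00386). Whether the strain construction touches these neighbours was not tested.

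In WT the level of most members depended on the library set. The members were a median of 0.64 on the log2 scale higher in A and B than in C and D, with 34 of 42 higher, against a median of 0.04 over all genes. In mcd1-1 the median was 0.16, with 26 of 42 higher, against 0.01 over all genes. QCR9 was 2.70-fold higher in WT A and B and 2.04-fold in mcd1-1 A and B, while ACO1 was at 0.575 and 0.551 of its C and D level. RIP1, COX4 and COX8 had ratios of 1.86, 1.69 and 1.95 in WT and 1.03, 1.08 and 1.11 in mcd1-1. Across the 10 genes that fell the ratio was 1.08 to 1.95 in WT and 0.801 to 1.11 in mcd1-1, so the higher level of WT A and B had little counterpart in mcd1-1 A and B. This was not particular to them. Among members that did not pass the test the ratio also dropped for COX12 (1.70 and 0.933), ATP7 (1.57 and 1.09) and CIT1 (1.62 and 1.12), while it was similar in both genotypes for QCR6 (1.78 and 2.03) and ATP15 (1.99 and 1.93).

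Within A and B alone 20 members were lower and 1 was higher, against 32.9% and 34.8% of all genes, and the median was -0.31. Within C and D alone 15 were lower and 10 higher, against 37.1% and 38.8%, and the median was -0.08. The 10 higher in C and D were 5 TCA cycle genes, 3 complex II genes and 2 complex III genes. The sets share no library, and 12 members were lower in both, against 25.8% of all genes. These were 6 ATP synthase genes (ATP2, ATP3, ATP4, ATP16, ATP17 and ATP20), 4 of complex IV (COX4, COX6, COX8 and COX9) and 2 of complex III (RIP1 and QCR8). No TCA cycle or complex II gene was among them. By complex, C and D alone gave 7 ATP synthase, 4 complex IV and 4 complex III genes lower, and A and B alone 9, 5 and 3. The fold change itself differed between the sets in 15 of 42 members, against 36.7% of all genes, by a genotype-by-set term that was added after seeing the data. It was less negative or more positive in C and D for 35 of 42.

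**Figure D3:**
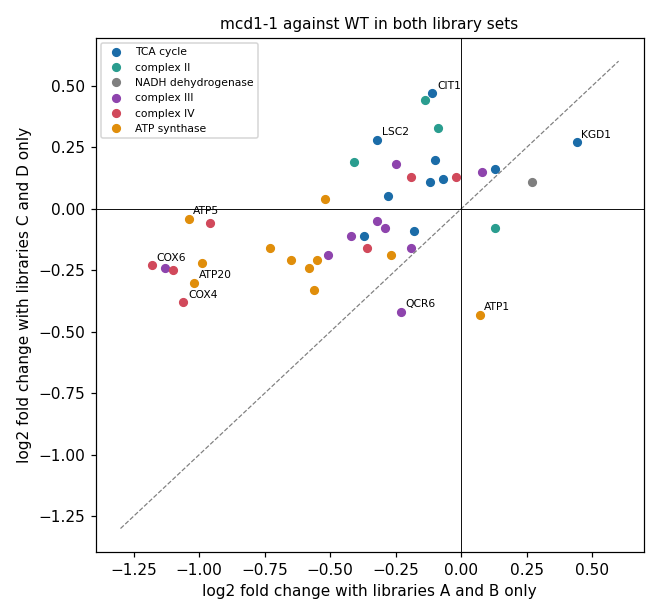
Log2 fold change of mcd1-1 against WT from libraries A and B (horizontal) and from libraries C and D (vertical), 1 point per gene; the dashed line marks equal values. Most points lie above the line, with COX6 at -1.18 and -0.23 and ATP5 at -1.04 and -0.04.

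Coding length moved with the difference between the sets. Across the 42 members, the WT difference of A and B from C and D had a Spearman rho of -0.66 with coding length, and -0.52 across all genes tested. In mcd1-1 the values were -0.40 and -0.38. For the fold change of mcd1-1 against WT, rho was 0.49 across the members and 0.06 across all genes. Within A and B alone it was 0.49 and 0.11, and within C and D alone 0.23 and -0.02. Genes of 1 library share its RNA and its depth, so these values describe the libraries. The TCA cycle genes are longer (990 to 3045 bases) than the subunits of complex IV (180 to 468 bases), so length, complex and direction go together in this gene set, and the part of length in the results was not tested.

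**Figure D4:**
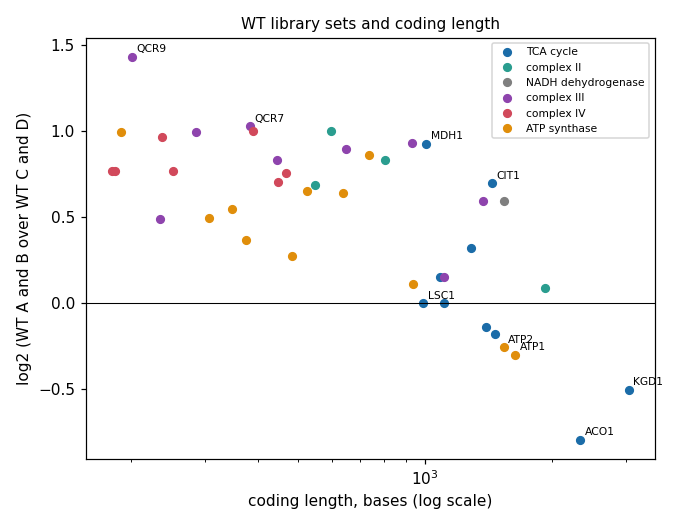
Log2 difference between WT libraries A and B and WT libraries C and D (vertical) against coding length in bases on a log axis (horizontal), 1 point per gene, coloured by complex. Short genes such as QCR9 lie highest (1.43) and long ones such as ACO1 (-0.80) and KGD1 lowest.

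Single libraries decided many calls. The count of members lower in mcd1-1 was 10 with all libraries, 4 without WT A, 2 without WT B, 3 without mcd1-1 A, 1 without mcd1-1 B, 4 without mcd1-1 C and 4 without mcd1-1 D, and it was 10 without WT C and 10 without WT D. RIP1 lost its call without any 1 of these 6 libraries, COX4 without WT B, mcd1-1 B or mcd1-1 C, and COX6 without WT B or mcd1-1 B. ATP20 was the member that stayed called when mcd1-1 B was left out. Scaling also matters: the TMM factors of WT lay between 0.879 and 0.902 and those of mcd1-1 between 1.09 and 1.21. With library size alone the median of all genes moved to 0.33 and that of the members to 0.12, and the members lay 0.21 below all genes under either scaling.

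Related enzymes were followed from lists of genes that do similar reactions. Of 11 paralogs and isozymes of TCA cycle and complex II enzymes, 7 rose and 0 fell, against 20.7% and 19.7% of all genes. The other 4 did not pass the test, and the median log2 fold change was 0.83. Of the 7 that rose, 6 had a mean under 50 CPM, where 38.4% of all genes rose and 6.94% fell. Within A and B alone 7 were higher and 1 lower, against 34.8% and 32.9% of all genes. Within C and D alone the counts were 8 and 2, against 38.8% and 37.1%. IDP2, a cytosolic NADP-dependent isocitrate dehydrogenase, rose from 7.59 ± 1.04 to 55.4 ± 13.9 CPM (SD, n = 4; log2 2.86 ± 0.21, adjusted p 3.64e-05). YJL045W, a minor form of the flavoprotein SDH1, rose from 8.84 ± 1.18 to 45.1 ± 4.8 CPM (log2 2.35 ± 0.15, 2.72e-05). SHH3, a homologue of SDH3, rose from 11.7 ± 0.857 to 33.4 ± 12.9 CPM (log2 1.51 ± 0.26, 0.00199). All 3 were higher in every mcd1-1 library than in any WT library. CIT3, IDP3, SHH4 and MDH2 rose as well, by 0.71 to 1.17 on the log2 scale, and the peroxisomal citrate synthase CIT2 was at 0.11 ± 0.38.

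The same pairs were compared within libraries, as the level of the related gene in percent of the member, by an exact 2-sided permutation test over 4 WT and 4 mcd1-1 libraries with adjustment over 9 pairs. In this design p cannot go below 0.0286. That p was reached by 6 pairs (adjusted p 0.0429 each). YJL045W went from 2.79 to 3.77% of SDH1 in WT to 13.9 to 20.9% in mcd1-1. SHH3 went from 5.99 to 13.2% of SDH3 to 23.2 to 37.9%. NDE2, an external NADH dehydrogenase that faces the intermembrane space, went from 2.44 to 2.96% of NDI1 to 10.1 to 14.9%. The ratios of CIT3 to CIT1 and SHH4 to SDH4 were 1.89-fold and 1.59-fold higher, and that of the peroxisomal MDH3 to MDH1 was at 0.627 of its WT value. When libraries were exchanged only within A and B and within C and D, each of the 6 had p = 0.0556, the smallest that exact test can give, so the passing p rests on treating all 8 libraries as exchangeable. With all 8 libraries exchanged, the ratios of CIT2 to CIT1, MDH2 to MDH1 and NDE1 to NDI1 did not pass (adjusted p 0.110 to 0.657). In the exact test within the sets, MDH2 to MDH1 and NDE1 to NDI1 also had p = 0.0556, and CIT2 to CIT1 had 0.556. The test within the sets thus does not separate the 6 pairs from MDH2 to MDH1 and NDE1 to NDI1.

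**Figure D5:**
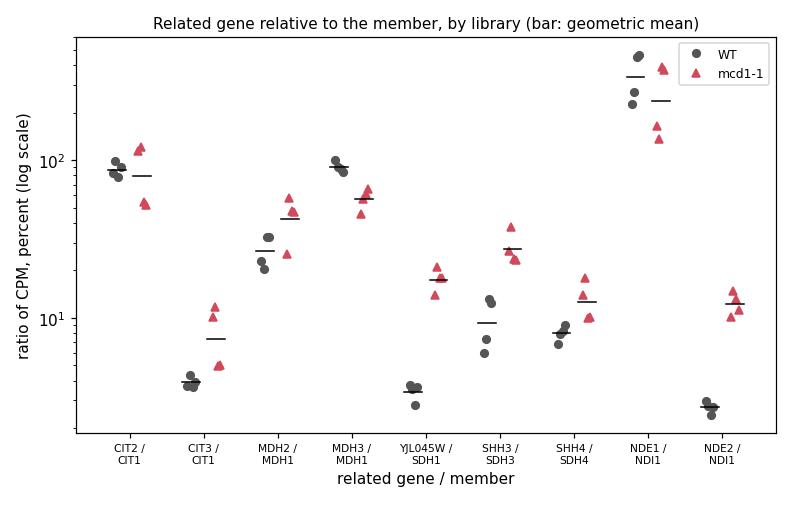
Level of a related gene in percent of the member in the same library, on a log axis, for 9 pairs, with grey circles for WT, red triangles for mcd1-1 and bars for the geometric mean of 4 libraries. YJL045W, SHH3 and NDE2 are higher relative to SDH1, SDH3 and NDI1 in every mcd1-1 library than in any WT library.

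Among 9 other electron donors, cytochrome c genes and the alternative forms of subunit V of complex IV, 4 rose and 0 fell, against 20.7% and 19.7% of all genes. Within A and B alone 5 were higher and 3 lower, against 34.8% and 32.9% of all genes. Within C and D alone the counts were 5 and 1, against 38.8% and 37.1%. GUT2, the mitochondrial glycerol-3-phosphate dehydrogenase, rose from 48.8 ± 14.8 to 328 ± 100 CPM (SD, n = 4; log2 2.75 ± 0.29, adjusted p 0.000206). NDE2 rose by 2.37 ± 0.30, the lactate dehydrogenase CYB2 by 1.74 ± 0.28 and the minor cytochrome c CYC7 by 1.40 ± 0.19 on the log2 scale. The main cytochrome c gene CYC1 was at -0.32 ± 0.23, NDE1 at -0.30 ± 0.21, DLD1 at 0.23 ± 0.14, COX5A at -0.42 ± 0.15 (adjusted p 0.050, not called, and 0.0193 with the replicate block) and COX5B at -0.23 ± 0.24.

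The regulators of respiratory genes mostly did not pass the test: 2 of 13 rose and 0 fell, against 20.7% and 19.7% of all genes. Within A and B alone 5 were higher and 0 lower, against 34.8% and 32.9% of all genes. Within C and D alone 4 were higher and 5 lower, against 38.8% and 37.1%. HAP4, the activating subunit of the CCAAT-binding complex, was at 232, 253, 238 and 255 CPM in WT A to D and at 283, 181, 258 and 271 CPM in mcd1-1 A to D. The groups overlapped and the log2 fold change was 0.02 ± 0.16 (adjusted p 0.934). HAP2, HAP3 and HAP5 were at 0.01 ± 0.18, -0.14 ± 0.31 and -0.03 ± 0.23. CAT8, an activator of genes for growth without glucose, rose from 28.3 ± 1.92 to 78.5 ± 16.1 CPM (log2 1.47 ± 0.16, 0.000198), and the glucose repressor MIG1 rose by 0.62 ± 0.15 (0.0111).

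At the entry of pyruvate, 2 of 10 genes fell and 1 rose, against 19.7% and 20.7% of all genes. PDB1, the beta subunit of the first component of pyruvate dehydrogenase, fell by 0.86 ± 0.18 on the log2 scale (adjusted p 0.00507) and LPD1, the lipoamide dehydrogenase shared with KGD1 and KGD2, fell by 0.38 ± 0.12 (0.0356). PYC1, a pyruvate carboxylase, rose by 0.91 ± 0.18 (0.00417). With the replicate block 6 were lower and 2 higher, within A and B alone 4 and 2, and within C and D alone 7 and 2. For all genes the shares lower and higher were 30.2% and 29.4% with the block. They were 32.9% and 34.8% within A and B alone, and 37.1% and 38.8% within C and D alone. MPC3, a subunit of the mitochondrial pyruvate carrier, was at 38.7, 31.9, 2.12 and 2.11 CPM in WT A to D and at 279, 386, 13.2 and 10.9 CPM in mcd1-1 A to D. Each mcd1-1 library was far above the WT libraries of its own set, but the sets lay so far apart that the groups overlapped. It was at 3.21 ± 1.37 on the log2 scale and was not called (adjusted p 0.0880), but was called higher with the replicate block (0.000127) and within each set, at 3.23 and 2.53; it is named after its values were seen. Of 12 carriers, 5 fell and 2 rose, against 19.7% and 20.7% of all genes, and within each set alone 6 were lower and 3 higher. OAC1, an oxaloacetate carrier, was at -1.29 ± 0.33, YHM2, a citrate and oxoglutarate carrier, at -1.11 ± 0.20 and PET9, the main ADP/ATP carrier, at -0.54 ± 0.14. SFC1, which exchanges succinate for fumarate, rose by 2.63 ± 0.30 on the log2 scale (adjusted p 0.000282).

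Of 11 ubiquinone synthesis genes 3 fell (COQ1, COQ7 and COQ10, at -0.66 to -0.45) and 0 rose, against 19.7% and 20.7% of all genes, with 7 lower and 0 higher in A and B alone and 4 and 4 in C and D alone. Of 41 assembly factors of complexes II to V 5 fell and 1 rose, shares of 12.2% and 2.44% against 19.7% and 20.7% of all genes. Of the 41, 26 had a mean under 50 CPM, where 6.94% of all genes fell and 38.4% rose. With the replicate block 14 of the 41 were lower and 8 higher, against 30.2% and 29.4% of all genes. The sets alone gave 19 lower and 6 higher in A and B, and 15 and 10 in C and D. Among 5 further ATP synthase subunits and inhibitors 1 fell and 0 rose, against 19.7% and 20.7% of all genes. It was INH1, an inhibitor of ATP hydrolysis, which fell by 0.63 ± 0.16 on the log2 scale (adjusted p 0.0138). With the replicate block 4 of the 5 were lower and 1 higher, against 30.2% and 29.4% of all genes. These were 3 and 1 within A and B alone and 4 and 1 within C and D alone. Of 12 translational activators of mitochondrial mRNAs 2 fell (ATP25 and AEP2) and 2 rose (AEP3 and CBP1), against 19.7% and 20.7% of all genes. They had 4 lower and 3 higher in A and B alone, and 3 and 4 in C and D alone. For all genes the shares lower and higher were 32.9% and 34.8% in A and B alone, and 37.1% and 38.8% in C and D alone.

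The partners encoded in the mitochondrial genome moved the other way from the nuclear subunits of complex IV and the ATP synthase. Of 6 tested, 4 were higher in mcd1-1 and 0 lower, against 20.7% and 19.7% of all genes. Of these 4, 3 had a mean under 50 CPM, where 38.4% of all genes rose. All 6 were higher within A and B alone and 3 within C and D alone, against 34.8% and 38.8% of all genes. COX1, the catalytic subunit of complex IV, was at 57.2, 94.8, 84.1 and 220 CPM in WT A to D and at 1182, 404, 345 and 372 CPM in mcd1-1 A to D. ATP6, the membrane subunit that carries the proton path, was at 1.41, 3.78, 2.58 and 6.44 CPM in WT A to D and at 31.6, 16.6, 12.3 and 12.5 CPM in mcd1-1 A to D. All mcd1-1 values lay above the WT values for both, and mcd1-1 A was the highest library for COX1. The model of COX1 overlaps other models. The log2 fold changes were 2.34 ± 0.54 for COX1 (adjusted p 0.00777) and 2.34 ± 0.48 for ATP6 (0.00456). Mitochondrial mRNAs in yeast carry no poly(A) tail, so these libraries measure what passed the poly(A) selection, and its part in the difference was not tested.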

How the data were processed

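The authors deposited raw read counts per gene model for 4 WT and 4 mcd1-1 poly(A) libraries, not normalised. Per the submitters' processing notes, reads were handled with STAR 2.5.3a, featureCounts 1.6.0, Trim Galore 0.4.3, bcl2fastq 2.9 and Picard on build R64. Settings for strand and for reads that map to several places were not given in the sources used. Per the labels, RNA was extracted with a Qiagen RNeasy kit and made into libraries by NEBNext Ultra chemistry.

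The members and the lists of related genes were chosen with earlier results of these data known. Models were kept by filterByExpr (6558 of 6596) and tested in edgeR 4.0.16 with TMM scaling and the quasi-likelihood F test, with group as the only term, a common biological coefficient of variation of 0.253 and an adjusted p threshold of 0.05. Standard errors follow from the F statistic. Totals of 22331070 to 58506447 counts make a floor of 3 counts equal to 0.0513 to 0.134 CPM, for counting error only. Values in every library are given, for each complex, for the 3 called genes with the largest change, or with none called for the gene with the smallest p; of each related list up to 3 called genes with the smallest p were eligible, plus a set list including HAP4, CYC1 and COX5A. HAP2, HAP3 and HAP5, MPC3, ATP2, ATP16 and the ratios within libraries were added for their roles after the data were seen, as were the class of at least 50 CPM and the genotype-by-set term. Motifs were searched in R64 on both strands, and no member had a copy of at least 90% identity over at least 100 bases by blastn 2.17.0. The models of IDH2, ATP1 and ATP14 overlap others.

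Deviations from the group means correlated between the same letters of WT and mcd1-1 at 0.606, 0.452, 0.633 and 0.598, which under the rule used counts as pairing. Different letters of the same set correlated alike, at 0.490 to 0.653. The labels do not state that a letter marks a shared culture or day. The main fit therefore has no block, and the fit with the replicate block is given beside it. Other settings were DESeq2 1.42.0, limma-voom (limma 3.58.1), RLE, upper-quartile and library-size scaling, no filter, a filter of 10 CPM in 4 libraries, robust dispersion, the replicate letter or the set as a block, each set alone, and each library left out. One gene of the list of paralogs and isozymes is not reported here. The code was tested on simulated counts. There the main fit called 11.9% of genes changed 1.5-fold, 67.2% of those changed 2-fold and 100% of those changed 4-fold. A gene that did not pass the test may therefore still differ by a small fold.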

Additional observations from a re-analysis of the deposited data

Results flagged for a closer look

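The fold change of mcd1-1 against WT differed between libraries A and B and libraries C and D, by a genotype-by-set term in edgeR, in 15 of the 42 members, where it differed in 36.7% of all genes tested, so the members' count is near the background. The largest such differences were 0.96 for ATP5, 0.92 for COX6, 0.86 for COX12, 0.85 for RIP1 and 0.81 for COX8, all on the log2 scale and all less negative in C and D. Dixon's test flagged no library as apart from the other 3 of its group in any of the 84 sets of 4 values. It looks for 1 value apart from 3, so it cannot flag A and B standing apart from C and D. For SDH1 in mcd1-1, with A at 341 CPM and B to D at 225 to 242 CPM, the outcome depends on the scale used.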

How the results depend on the processing

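With A and B only, 20 members were lower and 1 higher; with C and D only, 15 and 10; with the set block, 17 and 1; and with the replicate block (the paired fit), 14 and 1. DESeq2 called 12 lower and 0 higher, the filter of 10 CPM in 4 libraries 8 and 0, and RLE scaling, limma-voom, robust dispersion and no filter 10 and 0 each. Upper-quartile scaling called 3 lower and 1 higher, and library size alone 0 lower and 4 higher; the median log2 fold change of the members was then -0.09 and 0.12, while that of all genes was 0.13 and 0.33. Counts over all genes moved too, from 1291 lower and 1359 higher in the main fit. Both were larger with either set alone, with either block and with DESeq2, and both were smaller with the filter of 10 CPM. Upper-quartile scaling gave 915 lower and library size alone 550, each with more genes higher than the main fit. The larger member counts with the sets and blocks thus came with more calls among all genes. TCA cycle genes called lower numbered 2 with A and B only, 1 with the set block and 0 otherwise. Complex III genes called lower numbered 3, 4, 3 and 2 with A and B only, C and D only, the replicate block and the set block, and 0 under the last 2 scalings. For complex IV they were 5 with A and B only, 5 with the set block, 1 with upper-quartile scaling and 0 with library size alone. For the ATP synthase they were 9, 9, 2 and 0 in the same order.

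Leaving out 1 library gave 1 to 10 members lower and 0 higher, 0 TCA cycle genes, 0 to 1 genes of complex III, 0 to 4 of complex IV and 1 to 5 of the ATP synthase, with a member median of -0.35 to -0.12. None of the 10 genes called lower changed sign in any of these settings. With C and D only, some genes were called with the sign opposite to that with all libraries. LSC2, MDH1, SDH3, QCR9 and COX5B were called above 0, at 0.28, 0.20, 0.19, 0.18 and 0.20, and CIT2 below 0, at -0.20. Among the members, LSC1, FUM1, COX13 and ATP7 (0.05, 0.11, 0.13 and 0.04) and SDH1 (-0.08) also changed sign there but were not called. The cause was not tested. Beside the calls named above, the replicate block changed no other call among the members. Member counts of at least 1314 leave counting error small, so the spread between libraries limits these comparisons.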
